A study of Mus musculus with 6 samples.

Results

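The genes that carry bile acids across the ileal enterocyte, and those that the bile acid receptor FXR switches on, were followed in mouse intestinal epithelial cells. They are 8 genes, taken by symbol from the 18159 genes of the deposited table: Slc10a2, Fabp6, Slc51a, Slc51b, Nr1h4, Gpbar1, Nr0b2 and Fgf15. All 8 were listed, 7 had enough reads to be tested, and Gpbar1 did not. The study sequenced 3 libraries of wild-type mice and 3 libraries labelled Git2-knockout. The sample titles call the material intestinal epithelial cells. The series' design text calls it enteroids, which are epithelial organoids, from mice aged 12 days, before weaning. The genotype field of the second group reads Git2 knockdown. The sources used here do not state strain, sex, gut segment, how Git2 was altered, or what limits the line as a model, and the question asked is which of these genes differ between the 2 genotypes.

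Bile acids are made in the liver, act on fat in the gut lumen and are taken back in the terminal ileum. Slc10a2 (also called ASBT) brings them in at the apical membrane, Fabp6 binds them in the cytosol, and the pair Slc51a and Slc51b (OST alpha and beta) passes them to the blood. Inside the cell bile acids bind the nuclear receptor FXR, encoded by Nr1h4, which works with the retinoid X receptor and turns on Fabp6, Slc51a, Slc51b, Nr0b2 (the repressor SHP) and Fgf15. Fgf15 is a hormone that travels to the liver and lowers bile acid synthesis, and Gpbar1 (TGR5) is a bile acid receptor of the cell surface. In rodents the ileal uptake carrier is known to be low in suckling animals and to rise at weaning.

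FXR and its partner bind best to 2 half-sites that face each other with 1 base between them. The windows before 3 targets of FXR that fell are shown because they hold matches to this repeat or to a half-site of it. The window of the receptor gene Nr1h4 also holds a half-site and is not printed. Promoter windows of RefSeq, build GRCm38.p6, were found for 7 of the 8 genes, all but Fgf15. Each ran from 250 bases before the gene's start to 50 after it. The first 250 bases, upstream of the annotated start, are printed 5' to 3'. Fabp6 lies at chr11:43601563-43601812, Slc51a at chr16:32487880-32488129 and Slc51b at chr9:65422774-65423023, all on the minus strand.
Fabp6: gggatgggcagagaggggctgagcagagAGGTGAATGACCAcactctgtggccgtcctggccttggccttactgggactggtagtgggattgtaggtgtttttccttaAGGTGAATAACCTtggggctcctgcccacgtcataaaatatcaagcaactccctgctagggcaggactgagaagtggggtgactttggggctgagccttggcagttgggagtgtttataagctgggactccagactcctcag
Slc51a: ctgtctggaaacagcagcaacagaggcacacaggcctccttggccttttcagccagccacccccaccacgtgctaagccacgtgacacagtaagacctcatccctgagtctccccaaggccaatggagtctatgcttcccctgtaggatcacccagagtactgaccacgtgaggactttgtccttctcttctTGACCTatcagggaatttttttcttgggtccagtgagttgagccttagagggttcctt
Slc51b: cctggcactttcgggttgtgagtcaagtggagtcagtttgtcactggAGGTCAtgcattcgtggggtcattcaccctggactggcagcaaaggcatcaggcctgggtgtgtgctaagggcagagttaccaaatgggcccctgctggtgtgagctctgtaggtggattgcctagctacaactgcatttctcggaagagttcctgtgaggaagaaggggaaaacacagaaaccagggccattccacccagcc
Capitals in the Fabp6 line mark matches to the inverted repeat AGGTCANTGACCT with at most 2 mismatches, and capitals in the other lines mark the exact half-site AGGTCA on either strand.

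The Fabp6 window held 2 matches to the inverted repeat, AGGTGAATGACCA starting 222 bases and AGGTGAATAACCT starting 142 bases upstream of the start. Of 32851 mouse windows of the same length, 1.14% held at least 1 such match and 4 windows held 2 or more. The other 6 windows held none. The exact half-site was found in the windows of Slc51a, Slc51b and Nr1h4, and in 16.3% of all windows. These matches describe letters only. They are no measure of binding, and no match says only that these letters are not in this window.

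Git2 itself was at 22.2, 23.7 and 22.7 CPM (reads relative to library size, scaled by TMM factors) in wild type and at 17.4, 15.5 and 16.8 CPM in the libraries labelled Git2-knockout. Its log2 fold change was -0.47 with an SE of 0.07 (quasi-likelihood test of edgeR, adjusted by Benjamini-Hochberg, adjusted p = 4.44e-05), so transcript remained and this level does not check the genotype. Libraries held 16284414 to 19106581 estimated reads. Of 13558 genes tested 57% passed the test at an adjusted p of 0.05, 27.4% lower and 29.6% higher. With scaling to epithelial marker genes 82.3% of all calls were upward, and on log2(TPM + 1) 75.1%, against 51.9% as reported here. A count of called genes is therefore read against these shares. Epithelial markers summed to 11710 to 12260 CPM in wild type and 10270 to 10610 CPM in the other group. Absorptive enterocyte markers summed to 14270 to 14420 CPM and 13100 to 14580 CPM, which overlap, although 8 of the 12 fell and 2 rose (median -0.19 on the log2 scale). The 13 fibroblast and smooth muscle markers summed to 47.55 to 53.6 CPM and 139.7 to 145.7 CPM, the 8 endothelial markers to 23.31 to 23.5 and 50.34 to 56.77 CPM, and the 7 erythroid markers to 22.76 to 24.54 and 74 to 84.43 CPM. The 10 macrophage markers summed to 235.8 to 238.5 and 136.4 to 138.7 CPM, but of these only Csf1r fell (196.6 to 90.7 CPM), C1qa and C1qb rose and 7 did not pass.

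Of the 7 tested bile acid genes, 5 fell, 1 rose and 1 did not pass the test. Among all genes tested 27.4% fell and 29.6% rose. The median log2 fold change of the 7 was -0.68, beside 0.02 for all genes tested. The carrier at the entry rose, though not with the GC trend removed (-0.17, edgeR, adjusted p = 0.169). The cytosolic binding protein fell most, both export subunits and the hormone fell, the receptor fell slightly, and the repressor Nr0b2 did not pass. The 8 genes together took 0.117% to 0.12% of the reads of a wild-type library and 0.0729% to 0.0788% of those of the other group. In bulk samples fewer cells of a type and less RNA per cell cannot be told apart.

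**Figure D1:**
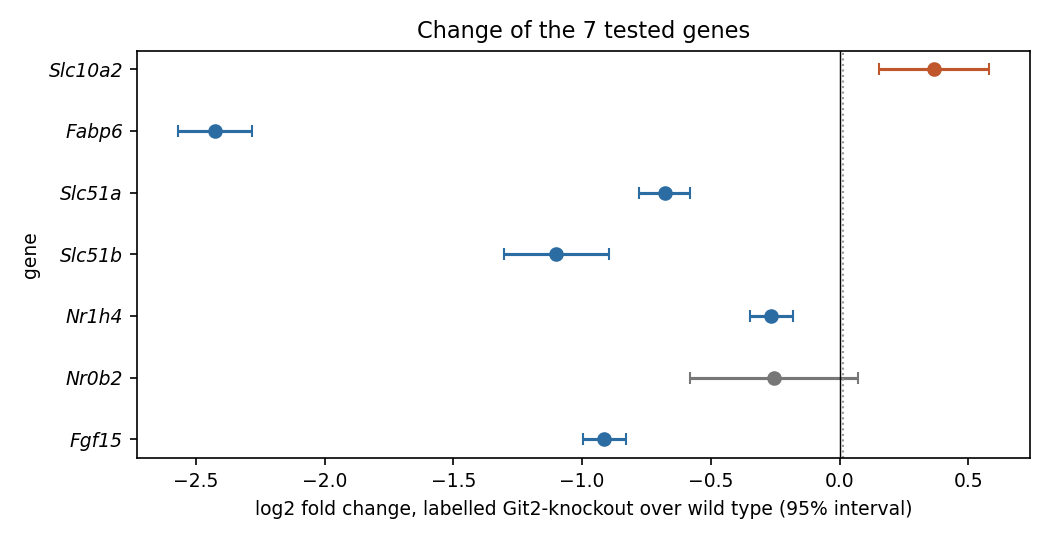
Points give the log2 fold change of the 7 tested genes, libraries labelled Git2-knockout over wild type, with the 95% interval of the edgeR fit; blue fell, orange rose, grey did not pass, and the dotted line is the median of all genes. Fabp6 stands at -2.43, Slc10a2 alone lies above 0 with its whole interval, and the interval of Nr0b2 crosses 0.

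The apical uptake carrier Slc10a2 was a weakly expressed gene in both groups. It stood at 3.70, 3.23 and 3.52 TPM (a transcript's share of the library, corrected for length) in wild type and at 5.11, 4.90 and 5.05 TPM in the libraries labelled Git2-knockout. These values rest on 120.85 to 136.03 and 146.39 to 154.65 estimated reads. All 3 libraries of the second group lay above all 3 of wild type, as they did for 32.3% of all tested genes in CPM and 46.4% in TPM. Slc10a2 rose by 0.37 in log2 CPM (SE 0.10, edgeR, Benjamini-Hochberg adjusted p = 0.00557), or to 129% of wild type, with a 95% interval of 111% to 150%, a direction that did not hold once base composition was corrected for. Removing the GC trend of each library gave a log2 fold change of -0.17 (edgeR, adjusted p = 0.169). Removing the length trend as well gave -0.20 (adjusted p = 0.105).

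Fabp6, the ileal protein that binds bile acids in the cytosol, fell most of the 8 genes. It was at 273, 253 and 262 TPM in wild type and at 56.5, 57.5 and 49.8 TPM in the libraries labelled Git2-knockout. In CPM it went from 59.8 ± 1.97 to 11.1 ± 0.935 (SD, n = 3 libraries each). The lowest wild-type library thus stood more than 4-fold above the highest of the other group. Fabp6 changed by -2.43 on the log2 scale (edgeR, SE 0.07, Benjamini-Hochberg adjusted p = 2.38e-13), which left 18.6% of the wild-type level, with a 95% interval of 16.9% to 20.5%. Of the 13558 genes tested, 10 had a larger fitted fall, and 131 genes (0.966%) passed the test with a fall of at least 2-fold. Among all 18159 genes ranked by mean TPM it moved from place 631 to place 3357.5.

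Both subunits of the exporter fell, and they stood at different levels. Slc51a, the larger subunit and the most abundant of the 8 genes, was at 713, 715 and 743 TPM in wild type and at 530, 497 and 488 TPM in the other group. Its log2 fold change was -0.68 (SE 0.05, edgeR, Benjamini-Hochberg adjusted p = 9.69e-09), to 62.5% of wild type with a 95% interval of 58.3% to 66.9%. Slc51b, the small subunit that the larger one needs to reach the membrane, was at 142, 138 and 125 TPM in wild type and at 80.6, 61.2 and 68.8 TPM in the other group. It fell by 1.10 (SE 0.10, edgeR, adjusted p = 2.11e-07), to 46.6% of wild type with a 95% interval of 40.5% to 53.7%. The groups did not overlap for either subunit. Ranges in CPM were apart for 62.9% of all tested genes, with the second group lower for 30.6%, and in TPM it was lower for 16.2%. With the length trend removed Slc51b stood at -0.62 (adjusted p = 9.36e-07) and Slc51a at -0.51 (adjusted p = 2.91e-11).

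**Figure D2:**
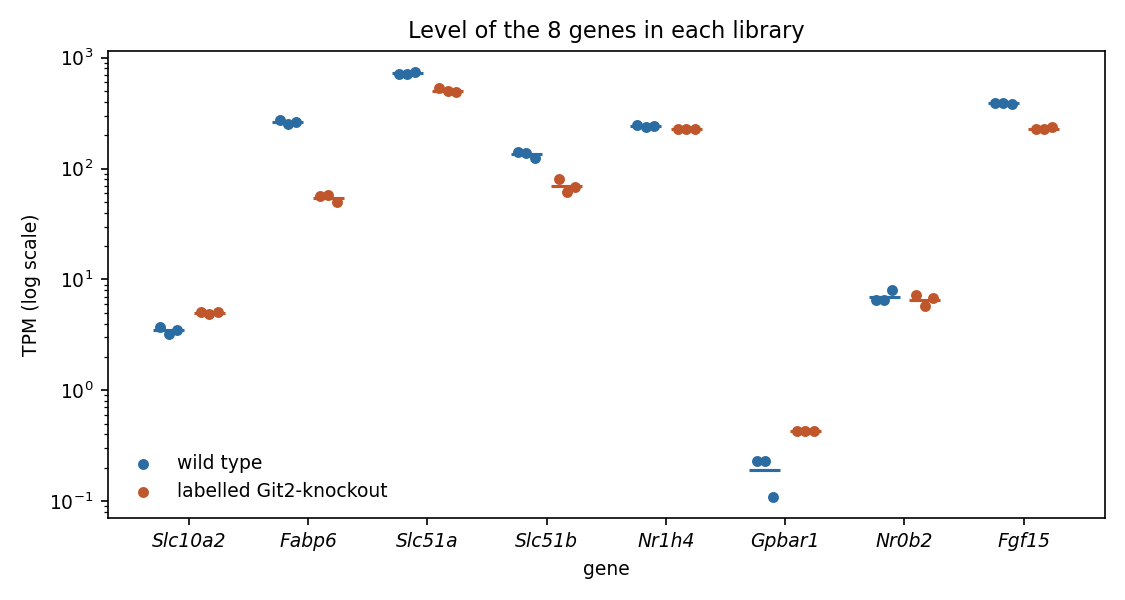
Each point is a library and each bar the mean of 3, in TPM on a log axis, for the 8 genes in the order uptake, binding, export, receptors, repressor, hormone. Slc51a is highest in every library, Slc10a2 and Nr0b2 lie below 10 TPM, and Gpbar1 lies below 1 TPM.

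The nuclear receptor FXR itself changed little. Nr1h4 was at 247, 237 and 244 TPM in wild type and at 226, 229 and 225 TPM in the libraries labelled Git2-knockout. In CPM it went from 230 ± 4.38 to 192 ± 3.43 (SD, n = 3 each), and the groups did not overlap on either scale. The second group was lower without overlap for 30.6% of all tested genes in CPM and 16.2% in TPM. The log2 fold change of Nr1h4 was -0.26 (SE 0.04, edgeR, Benjamini-Hochberg adjusted p = 3.46e-05), and 20.3% of all tested genes had a larger fall. With scaling to epithelial marker genes, which placed the median of all genes at 0.22, Nr1h4 stood at -0.06 and lost its call (edgeR, adjusted p = 0.21). On the log2(TPM + 1) scale, where the median gene stood at 0.14, it was at -0.10 (limma-trend, adjusted p = 0.0269).

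The surface receptor Gpbar1 was close to the detection limit. It had 2, 2 and 1 estimated reads in wild type and 3 reads in each of the other libraries. The second group's reads lay above those of wild type without overlap, as CPM did for 32.3% and TPM for 46.4% of all tested genes. At so few reads this order is not read as a difference. Gpbar1 was not tested, and with at most 3 reads a library no fold change is given.

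Of the targets of FXR outside the transport chain, the hormone fell and the repressor did not pass the test. Fgf15, the ileal hormone, was at 389, 387 and 383 TPM in wild type and at 226, 226 and 236 TPM in the other group. Its log2 fold change was -0.91 (SE 0.04, edgeR, Benjamini-Hochberg adjusted p = 4.97e-11), to 53.1% of wild type with a 95% interval of 50.1% to 56.3%. Nr0b2, the repressor SHP, was at 6.51, 6.48 and 8.05 TPM in wild type and at 7.26, 5.71 and 6.75 TPM in the other group, and the groups overlapped. Its log2 fold change was -0.25 (SE 0.15, edgeR, adjusted p = 0.169). The 95% interval from -0.58 to 0.07 includes no change, and includes the value of Nr1h4 but not that of Fgf15. Over 19 alternatives it ran from -0.38 to 0.13 without a call.

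Levels per length gave a different order in the 2 groups. In wild type Slc51a came first, followed by Fgf15, Fabp6, Nr1h4, Slc51b, Nr0b2, Slc10a2 and Gpbar1, and the ranges of neighbouring genes did not overlap. In the libraries labelled Git2-knockout Slc51a was still first. Fgf15 (226 to 236 TPM) and Nr1h4 (225 to 229 TPM) overlapped behind it. Slc51b (61.2 to 80.6 TPM) came next, and Fabp6 (49.8 to 57.5 TPM) had dropped behind it. Nr0b2 (5.71 to 7.26 TPM) and Slc10a2 (4.90 to 5.11 TPM) stood closer to each other than in wild type, and Gpbar1 was last.

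Ratios of 2 genes within a library do not depend on how libraries are scaled, but they do keep any trend with length or GC content. In TPM, Fabp6 was 73.8, 78.4 and 74.3 times as abundant as Slc10a2 in wild type and 11.1, 11.7 and 9.86 times in the other group. Slc51a over Slc10a2 went from 208 ± 14.5 to 101 ± 3.61 (SD, n = 3 each). Fabp6 over Fgf15 went from 0.680 ± 0.0244 to 0.238 ± 0.0241. Fgf15 over Nr1h4 went from 1.59 ± 0.0375 to 1.01 ± 0.0328. Slc51b over Slc51a went from 0.187 ± 0.0166 to 0.139 ± 0.0146, with wild-type libraries at 0.199, 0.193 and 0.168 and the others at 0.152, 0.123 and 0.141. With the length and GC trends removed, the log2 fold changes of Slc51b (-0.58) and Slc51a (-0.55) were nearly the same. Those of Slc51a (-0.55) and Slc10a2 (-0.20) also lay closer together than in the main fit. In the libraries labelled Git2-knockout all 5 ratios lay below those of wild type, without overlap. No share over other gene pairs was taken, and single genes were already apart in CPM for 62.9% of those tested. The separation of these ratios is therefore not read as a further result. The exact two-sided permutation test gave p = 0.1 for each, also after adjustment over the 5, and this is the smallest value that 3 against 3 libraries allow.

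**Figure D3:**
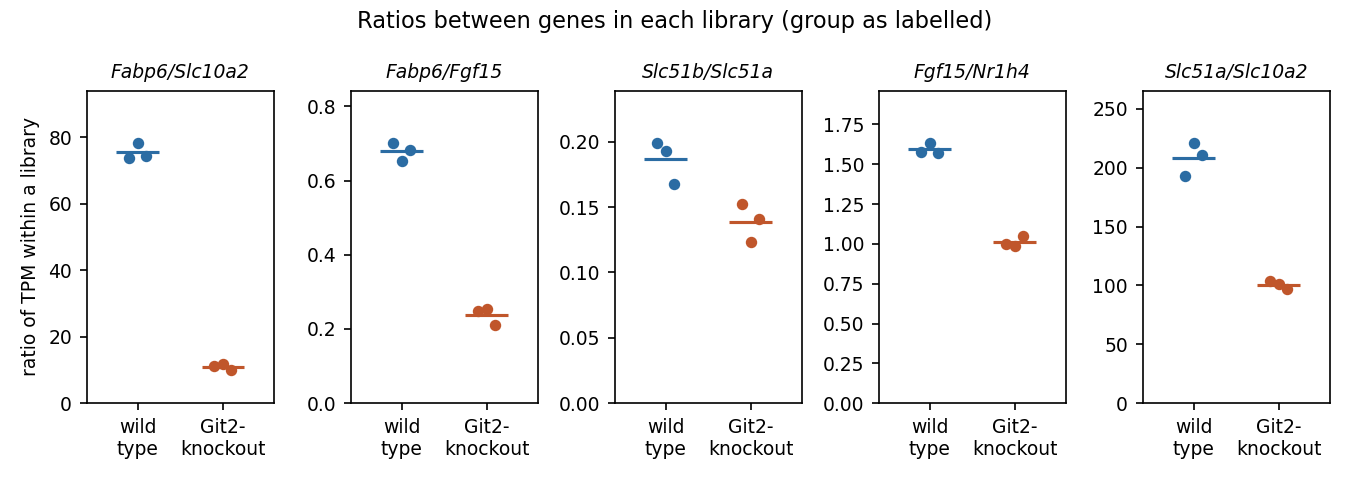
Each panel gives the ratio of the TPM of 2 genes in each library (points) with the mean of 3 libraries (bar), on axes that start at 0. The 2 groups do not overlap in any panel, and the spread of Slc51b over Slc51a comes closest to closing the gap.

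Nuclear receptors and factors that work beside FXR changed one by one. Of 16 tested members of this list 8 fell and 3 rose, with a median of -0.14, beside 27.4% of all genes lower and 29.6% higher. Rxra, the retinoid X receptor with which FXR pairs, was at 135, 134 and 136 CPM in wild type and 126, 130 and 129 CPM in the other libraries, a log2 fold change of -0.08 (edgeR, adjusted p = 0.124). It lay at 0.12 (adjusted p = 0.0329) with scaling to epithelial markers, at 0.11 (adjusted p = 0.0254) with the GC trend removed and at -0.23 (adjusted p = 9.51e-06) with the length trend removed. The fatty acid sensor Ppard fell (-0.83), as did Nr1i2, the xenobiotic receptor PXR that also senses bile acids (-0.43). Hnf4g, a factor of mature enterocytes, rose from 112 ± 4.45 to 207 ± 23.5 CPM (0.89). The coregulator list had 8 rises and 3 falls among 14 tested, among them the deacetylase Sirt1 (0.94) and the arginine methyltransferase Prmt1 (-0.57). That majority turned with the length trend removed, alone or with the GC trend, where 3 rose and 6 fell.

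Other genes reported as FXR targets were divided. Of 19 tested 8 fell and 3 rose, with a median of -0.04, beside 27.4% of all genes lower and 29.6% higher. The apolipoproteins Apoc2 (-1.08), Apoc3 (-1.12) and Apoa1 (-0.79) fell, and the sphingomyelinase Smpd3 fell (-0.44). These named genes are from the 8 falls, and none of the 3 rises is named. The list does not give the direction in which FXR acts on each gene. Apoc2 went from 234 ± 8.21 to 110 ± 9.14 CPM (SD, n = 3 each). Among other carriers of bile acids and organic anions 4 rose and 4 fell of 12 tested. Abcc2, the apical export pump and the most abundant of that list, was at 1539, 1501 and 1484 CPM in wild type and at 1327, 1632 and 1598 CPM in the other libraries, which overlap (log2 fold change 0.01, edgeR, adjusted p = 0.912). It stood at -0.19 (adjusted p = 0.0033) with the length trend removed, at -0.30 (adjusted p = 0.00257) with the GC trend removed too, and at 0.07 (adjusted p = 0.0311) without Git2-knockout replicate 1. Abcc3, its basolateral relative, fell from 13.9 ± 0.568 to 9.35 ± 0.753 CPM. It is from the 4 falls of the carrier list, and none of that list's 4 rises is named.

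Of 13 tested genes of bile acid synthesis, conjugation and detoxification 5 fell and 1 rose, beside 27.4% of all genes lower and 29.6% higher. With scaling to epithelial markers, and also on log2(TPM + 1), 5 rose and 4 fell. The cytochromes Cyp3a25 (-1.12) and Cyp3a11 (-1.49), which can oxidise bile acids, fell, Cyp3a25 from 44.1 ± 0.514 to 20.3 ± 1.05 CPM. The more abundant Cyp3a13 of the same family rose from 184 ± 3.66 to 224 ± 3.21 CPM (0.28, edgeR, adjusted p = 1.72e-05). All 3 are close relatives, so their reads may be shared. The liver enzyme Cyp7a1, which sets the rate of bile acid synthesis, had 0 reads in all wild-type libraries and 0, 0 and 2 reads in the others, and albumin had at most 3 reads in any library. In the FGF15 list 3 of 7 tested genes rose and 0 fell, with 4 not passing, but with the length and GC trends removed 1 rose and 2 fell. Malrd1, whose product is known to promote release of Fgf15, was at 100, 102 and 95.7 CPM in wild type and 98.4, 122 and 125 CPM in the other group. It passed at adjusted p = 0.0386 (edgeR, log2 fold change 0.22) and lost that call when any library but Git2-knockout replicate 1 was left out, with adjusted p from 0.06 to 0.128. Once both the length and the GC trend were removed it stood at -0.16 (adjusted p = 0.0106). Fgfr4, the receptor of Fgf15, was at 25.2 to 27.3 CPM in wild type and 23.3 to 26.3 CPM in the other libraries (edgeR, adjusted p = 0.393).

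Fabp6 did not fall alone in its protein family. Of 7 tested intracellular lipid-binding proteins, Fabp6 included, 4 fell and 1 rose, beside 27.4% of all genes lower and 29.6% higher. Fabp1, the liver-type fatty acid binding protein, was at 30.3, 30.4 and 29.4 CPM in wild type and at 7.04, 6.03 and 7.07 CPM in the other group (-2.16, SE 0.08, edgeR, adjusted p = 7.58e-12). Rbp2, the retinol carrier of enterocytes, fell by 1.15 and Fabp2, the intestinal fatty acid binding protein, by 0.66 on the log2 scale. The counts of 4 falls and 1 rise held in all 20 alternatives. In the SLC10 family Slc10a2 was the only gene called of 5 tested. That count moved from 0 to 3 rises over the 20 alternatives, with 0 in both fits that removed the GC trend.

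Regional genes outside the pathway gave no single direction. Of 9 distal small intestine genes that are not among the 8, 5 rose and 3 fell, with a median of 0.22. The shares over all genes tested were 29.6% higher and 27.4% lower. Neurotensin (Nts) rose by 1.16 and the endocytic receptor Lrp2 by 0.96. Of 10 tested proximal genes 8 fell and 1 rose, with a median of -0.61. Gata4, the factor that keeps the bile acid genes low in the jejunum of adult mice, went from 31.1 ± 1.79 to 20.3 ± 0.278 CPM (SD, n = 3 each; log2 fold change -0.62, edgeR, adjusted p = 7.99e-07). Cdx1 fell (-0.72), and Cdx2, which directs intestinal identity, fell (-0.26) but stood at -0.01 (adjusted p = 0.855) after removal of both trends. Pan-epithelial markers fell in 8 of 10 cases with a median of -0.24. With the GC trend removed 4 fell and 2 rose, with a median of -0.05. Fibroblast markers rose in 11 of 12 tested (median 1.28), endothelial markers in 8 of 8 (1.14) and erythroid markers in 4 of 5 (1.52), and B cell markers fell in 5 of 6 (-1.13). Their part in the changes of the bile acid genes was not tested. With scaling to the epithelial markers the log2 fold changes were -2.23 for Fabp6, -0.90 for Slc51b, -0.71 for Fgf15 and -0.48 for Slc51a, all still called.

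**Figure D4:**
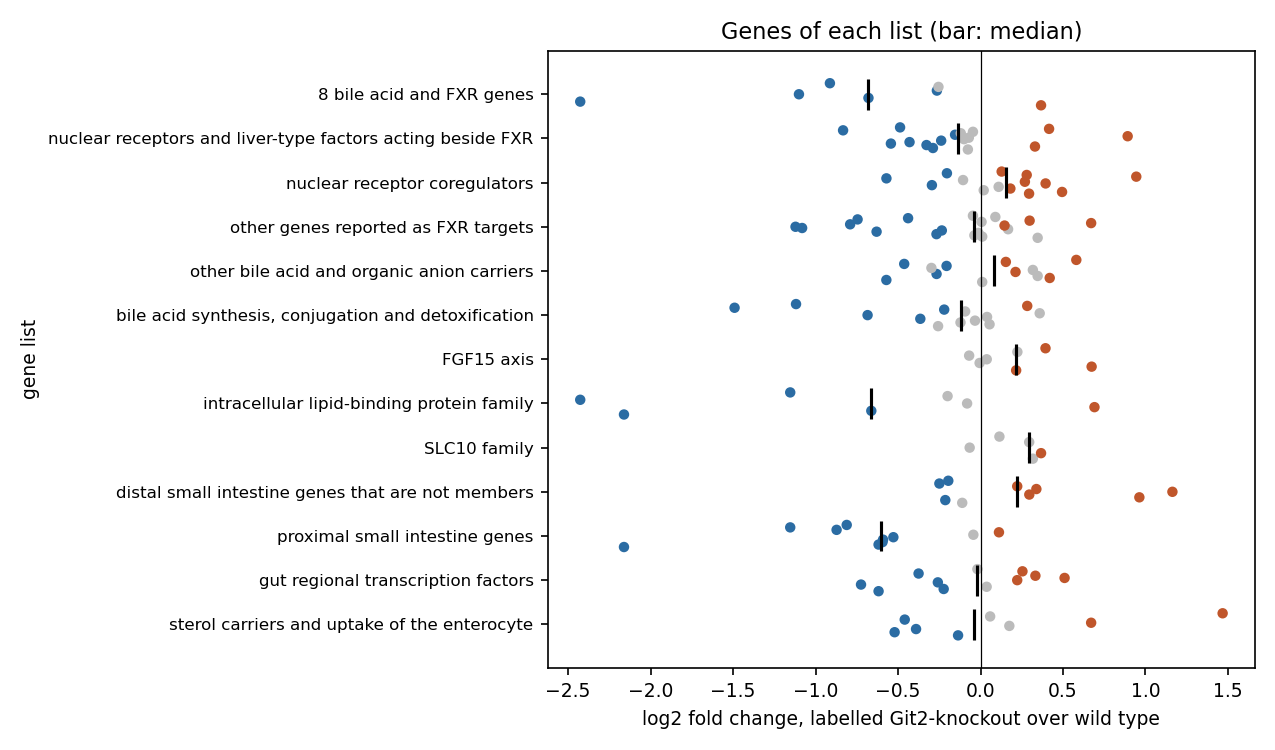
Each point is a tested gene of a list, at its log2 fold change (libraries labelled Git2-knockout over wild type; blue fell, orange rose, grey did not pass), and each bar is the list's median. The medians of the bile acid genes (-0.68), the lipid-binding proteins (-0.66) and the proximal genes (-0.61) are the lowest of the 13 lists drawn, and the lipid-binding list shares Fabp6 with the first and Fabp1 and Rbp2 with the last.

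Genes with a profile over the 6 libraries like that of Fabp6 were sought among 11816 genes, and predicted models were passed over. Distances were taken between log2(CPM + 0.5) profiles, each from its wild-type mean. The nearest were the cytochrome Cyp2c55 (distance 0.383), the acyl-CoA thioesterase Acot12 (0.501), the acute phase protein Saa3 (0.549), Fabp1 (0.585) and the inflammasome sensor Nlrp1b (0.771). Their fitted log2 fold changes were -3.08, -2.48, -3.59, -2.16 and -4.07, beside -2.43 for Fabp6. The added 0.5 shrinks the fall of a gene near 0 CPM. Saa3 and Nlrp1b have close relatives with which reads may be shared, and both lay below 0.5 CPM in every library labelled Git2-knockout. Cyp2c55, the nearest gene, was also near 0 in those libraries, at 0.425, 0.586 and 0.353 CPM. Acot12 was at 9.47, 10.3 and 10.4 CPM in wild type and at 1.76, 1.58 and 2.06 CPM in the other group. Nearest to Fgf15 were Bst1 (0.0862), H2-Q1 (0.0998), Rps14 (0.131), Exoc3l4 (0.139) and Cysrt1 (0.148). Bst1, a cell surface enzyme, was at 129, 131 and 135 CPM and at 71.2, 70.1 and 69.3 CPM. H2-Q1 and Rps14 also have near-identical copies. With 2 groups of 3 libraries these distances mainly reflect the size of the difference between groups.

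**Figure D5:**
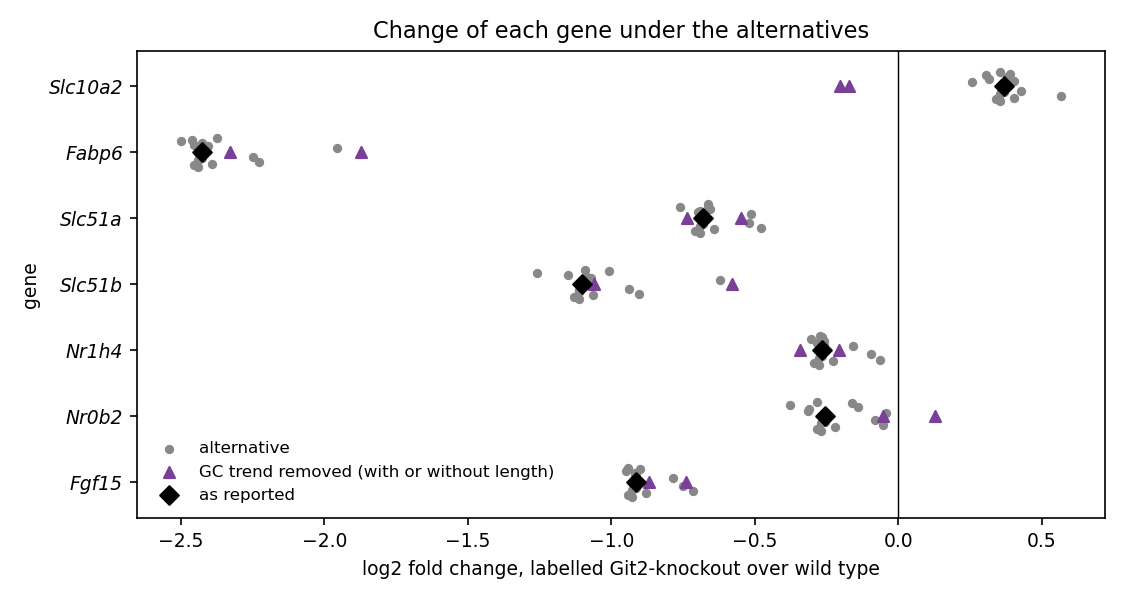
For each of the 7 tested genes the diamond gives the log2 fold change as reported, grey points the other alternatives and triangles the fits with the GC trend removed, alone or with the length trend. Fabp6, Slc51a, Slc51b, Nr1h4 and Fgf15 stay below 0 in all 20, while Slc10a2 lies below 0 in both triangles and Nr0b2 lies above 0 in 1.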

How the data were processed

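mRNA was captured on oligo(dT), fragmented and made into cDNA, per the labels' protocols. RSEM, Bowtie2, HISAT and the build GRCm39 are named in the submitters' processing notes. The sources used here state no versions, annotation or strand setting. The deposited table holds estimated counts (58.9% to 69.2% of values per library are not whole), TPM and FPKM for each library, all made by the authors, per the file headers. FPKM served only to derive transcript lengths, and the authors' group averages were not used.

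Groups and replicate numbers came from the sample titles. No label ties a library to its own animal or culture. The p-values therefore cover only the spread among these samples, and that spread may be technical. Chi-square per degree of freedom ran from 1.58 to 7.21 between replicates, so each was counted.

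Estimated counts were rounded, and the whole table was fitted with edgeR 4.0.16 (R 4.3.3): filterByExpr (13558 of 18159 genes), TMM, robust quasi-likelihood test, two-sided, Benjamini-Hochberg over all genes tested, threshold 0.05. The SE was derived from the log2 fold change and its F statistic. Levels in CPM and TPM are per library. In simulated libraries of this comparison with 13558 genes, 54% of 1.25-fold, 78% of 1.5-fold and 98% of 2-fold changes were recovered.

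The members, lists and rules were chosen with earlier results of these data known. The text names the 8 genes, Git2, and genes of each list with the smallest p or highest TPM. It also names the 5 nearest to Fabp6 and to Fgf15, predicted models passed over, among genes whose log2 CPM averages 1 or more. Not every gene that the rule names is described, and Rxra, Smpd3, Fgfr4, Cyp7a1 and albumin were named after their values were seen. Alternatives were other scalings (also to 10 epithelial markers), DESeq2 1.42.0, limma 3.58.1 (voom, and trend on log2(TPM + 1)), other filters, a non-robust fit, a replicate block, loess removal of the length trend (span 0.5), and leaving out each library. Removal of the GC trend, alone and with length, was added later, with GC content from GENCODE transcripts of GRCm38. RefSeq promoter windows are also of GRCm38.p6, a build other than the authors'.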

Additional observations from a re-analysis of the deposited data

How the results depend on the processing

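Over 20 alternatives the falls of Fabp6 (-2.50 to -1.87), Fgf15 (-0.95 to -0.71), Slc51a (-0.76 to -0.48) and Slc51b (-1.26 to -0.58) kept direction and call. Nr1h4 lost its call only with epithelial scaling (-0.06), where 4 of the 8 genes were called lower in place of 5. No gene of the 8 was called higher (0) with the GC trend removed, alone or with length, because Slc10a2 stood at -0.17 and -0.20. The cause was not tested. Among all genes, epithelial scaling gave 1431 falls and 6654 rises, and log2(TPM + 1) gave 1894 falls. Other signs that turned were Abcc2 (-0.19 with the length trend removed, -0.30 with both), Malrd1 (-0.043 with the length trend removed, -0.16 with both) and Rxra (0.12 with epithelial scaling, 0.11 with the GC trend removed). Replicate numbers showed no sign of pairing the libraries. Correlations of same-numbered deviations ran from -0.0115 to 0.0385, and those of other pairs from -0.0447 to 0.0341. With 3 libraries in each group this cannot exclude a pairing. With the replicate block 5 of the 8 genes fell and 1 rose, with 3578 falls and 3863 rises in all. Without each library in turn 5 fell and 1 rose. Counts in the lists moved with scaling and trends: FXR targets ran from 6 to 12 falls and 2 to 6 rises, factors beside FXR from 4 to 12 falls, coregulators from 3 to 10 rises and 1 to 6 falls, other carriers from 1 to 5 rises and 1 to 7 falls, synthesis and detoxification genes from 4 to 7 falls and 1 to 5 rises, the FGF15 list from 1 to 6 rises and 0 to 2 falls (median -0.04 with the length trend removed), epithelial markers from 4 to 8 falls and 0 to 3 rises, and distal genes from 0 to 3 falls. Proximal genes stayed at 8 or 9 falls. Depth limits Gpbar1, with at most 3 reads.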
